A study of Homo sapiens with 39 samples.

Results

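The expression profile of a line carrying isoform 6 of hepatocyte nuclear factor 4 alpha (HNF4A) was compared with that of a line carrying isoform 3, in 3 RNA-seq libraries each, 6 of the 39 libraries of the series. The 6 libraries were taken by their labels, as HNF4alpha6-GFP and HNF4alpha3-GFP. In the standard isoform nomenclature, which the labels do not spell out, both isoforms start at promoter P1 and end in the short C-terminus, and isoform 6 differs from isoform 3 by the additional exon 1B near the N-terminus. All cells were HCT116, a human colorectal cancer line, in its Flp-In T-REx form, and each isoform was fused to GFP and switched on with 2.5 µg/ml doxycycline for 48 h in 1 stable line per isoform. The parental cells of the series have no HNF4A construct and received doxycycline in the same way. Blasticidin and hygromycin B, which kept the constructs in the lines, and blasticidin and zeocin, used for the parental cells, were withdrawn when induction began. No group expressed GFP alone, so GFP, the derivation of a line and the isoform cannot be told apart against the parental cells, and a clonal difference between the isoform 3 and isoform 6 lines cannot be told apart from the isoform. Isoforms 1 and 4 form the same pair with the full-length C-terminus, and isoforms 2 and 5 with the C-terminus that carries an insertion, each again with 3 libraries. The labels number the replicates without saying that they came from separate cultures, so the p-values measure the spread between these samples, which may be technical.

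HNF4A is a nuclear receptor that binds DNA as a homodimer at direct repeats of a half-site and maintains the programmes of liver, gut and kidney epithelium. Its gene has a pair of promoters, and alternative first exons and C-terminal exons give proteins with the same DNA-binding domain and different flanking domains. The N-terminal activation function lies next to the region that exon 1B interrupts, and the C-terminal domain binds coactivators and corepressors. Among its textbook targets are genes of lipid handling, the brush border, coagulation and drug metabolism.

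HNF4A mRNA was measured first, because it checks the labels. The files list HNF4A in a row per isoform, and in each of the 6 libraries the row with the highest value was that of its own isoform. Summed over the rows, HNF4A was at 407.0, 833.5 and 771.8 TPM (transcripts scaled to gene length and to a fixed library total) in the 3 isoform 3 libraries. In the isoform 6 libraries it was at 1027, 1109 and 1078 TPM, and in the parental libraries at 31.9, 30.8 and 31.7 TPM. All isoform 6 values lay above all isoform 3 values, by a ratio of means of 1.60, or 1.33 without isoform 3 replicate 1 (exact permutation test on log2 TPM, two-sided, p = 0.1, the smallest value that 3 against 3 libraries allow). The isoform 6 line thus had the higher HNF4A mRNA level of the pair, and the part of this level in the differences below was not tested.

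Replicate 1 of isoform 3 stood apart from the other isoform 3 libraries. Its HNF4A level was the lowest among the libraries of the lines in the series. Across genes its correlation with both other isoform 3 libraries on the log2(TPM + 1) scale was 0.990, against 0.987 to 0.988 with the isoform 6 libraries and 0.992 between the other isoform 3 libraries. The median SD over replicates was 0.0905 in isoform 3, 0.0671 in isoform 6 and 0.0647 in the parental cells on that log2 scale. Results are therefore given with all 3 isoform 3 libraries and without replicate 1. The part of the HNF4A level in the values of this library was not tested. TPM does not carry the number of reads, so the depth of each library is not known. Markers of colorectal epithelium were high in all 6 libraries, with a summed level of 7 genes of 3533 to 3600 TPM in isoform 3, 2621 to 2917 TPM in isoform 6 and 3208 to 3335 TPM in the parental cells. The fibroblast sum was 11.7 to 15.2 TPM over the 6 libraries, mostly from COL1A1, the endothelial sum 1.69 to 2.82 TPM, and the hepatocyte sum 17.8 to 22.8 TPM, mostly from CPS1. The erythroid sum, mostly from HBB, was 34.4 to 37.2 TPM in isoform 3 and 41.9 to 47.2 TPM in isoform 6. LUM was at 0 in all 6 libraries, while COL1A2, DCN, PTPRC, CD3E and HP were near 0. The leukocyte sum, of 5 genes, was 9.95 to 14.6 TPM in isoform 3 and 6.54 to 7.89 TPM in isoform 6, almost wholly from CD68, a lysosomal membrane protein that is not confined to leukocytes.

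Isoform 6 against isoform 3 changed few genes, and most of them were lower in isoform 6. Of 15002 genes tested, 105 (0.7%) were called, meaning a Benjamini-Hochberg adjusted p under 0.05 in limma and an absolute difference of at least 1 on the log2(TPM + 1) scale, which understates changes of genes with low TPM. Of these, 92 (0.613%) were lower and 13 (0.0867%) were higher in isoform 6. The counts without isoform 3 replicate 1 were 147 in all (0.98%), 121 lower (0.807%) and 26 higher (0.173%). Of the 92 genes, 88 remained called without that library, and of the 13 genes 12 did. The 3 values of each line did not overlap for 90 of the 92 and for 11 of the 13, against 12.8% of all genes tested with isoform 6 lower and 20.8% with isoform 6 higher (33.6% in all). With no minimum difference, 3237 genes (21.6%) passed the adjusted p, 1887 higher (12.6%) and 1350 lower (9%). The median difference over all genes tested was 0.03. Just inside the minimum of 1 lay S100A10, GDA and METTL7B at -1.003 to -1.006, and just outside it lay KRT15 and VEGFA at -0.99 and THBS1 at 0.99. In the plot of level against difference, the called genes lay mostly below the line of no change and at moderate levels.

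**Figure D1:**
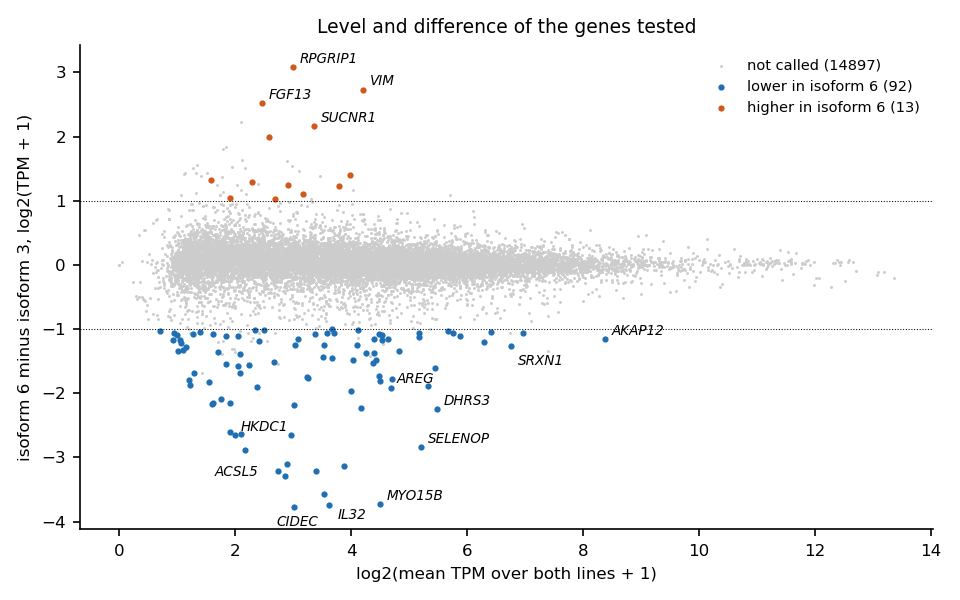
Difference between isoform 6 and isoform 3 (log2(TPM + 1), vertical axis) against the log2 of the mean level over both lines plus 1 (horizontal axis) for the 15002 genes tested. Blue points are the 92 genes called lower and orange points the 13 genes called higher in isoform 6; grey points were not called, and dotted lines mark differences of 1 in either direction.

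Of the genes of lipid handling, CIDEC, ACSL5 and CIDEB were called, and all 3 were lower in isoform 6. CIDEC, a lipid droplet protein that enlarges droplets by lipid transfer (chromosome 3, 9866711 to 9880254, GRCh38), was at 9.70, 17.8 and 14.5 TPM in isoform 3 and at 0.099, 0.0339 and 0.0747 TPM in isoform 6. The isoform 6 values overlapped those of the parental cells, 0.0344 to 0.125 TPM. The difference was -3.77 ± 0.13 (SE, log2, adjusted p = 2.1e-19), and -3.998 without isoform 3 replicate 1. ACSL5, which joins long-chain fatty acids to coenzyme A in the intestine (chromosome 10, 112374018 to 112428380), was at 7.37, 12.998 and 12.7 TPM in isoform 3. In isoform 6 it was at 0.230, 0.270 and 0.271 TPM, below the parental 0.485 to 0.640 TPM, with a difference of -3.22 ± 0.11 from isoform 3 and of -3.46 without replicate 1. CIDEB, the relative of CIDEC that acts in lipoprotein assembly, was at 13.7, 32.3 and 30.6 TPM in isoform 3 and at 2.25, 1.69 and 1.58 TPM in isoform 6, a difference of -3.14 ± 0.18. These 3 were the only genes called of the 18 tested members of a list of fatty acid activation and lipid droplet genes, against 0.613% of all genes called lower. CIDEC and ACSL5 passed the filter on mean TPM through the lines where they were high. The share called therefore says nothing of the list as a whole. The list's median was 0.04, beside 0.03 for all genes. With no minimum, 6 of the 18 passed lower, these 3 among them, and 1 higher, against 9% and 12.6% of all genes. The perilipins PLIN2 and PLIN5 differed by -0.08 and 0.13, and the paralogs ACSL1, ACSL3 and ACSL4 by 0.02 to 0.11, and none of these 5 passed the adjusted p.

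Promoter sequence is shown for the genes called lower that hold a motif bound by HNF4 proteins, because the factor that differs between the lines binds DNA. RefSeq promoters (GRCh38.p14, 250 bases before to 50 after a start) were found for 68 of the 92 genes called lower, with 98 starts among them. The motif CAAAGTCCA, on either strand, was in 8 of the 98 promoters (8.16%), each of a different gene, and in 135 of all 35116 promoters of the table (0.384%). Leaving out isoform 3 replicate 1, it was in 10 of 128 promoters (7.81%) of the genes called lower. It was in none of the 14 promoters of genes called higher, which are too few to show a difference from a share of 0.384%. The wider form CAAAGTNCA, which includes CAAAGTCCA, was in 10 promoters (10.2%, against 1.1% of all), and CAAAGGTCA was in 1 (1.02%, against 0.407%). Stretches of 49 bases around the match are given in the direction of transcription, with the motif or its reverse complement in capitals. As a check of strand, the end of each promoter was sought in the GENCODE transcripts of its gene. It was found for each gene shown except SDCBP2, whose start is thus less certain. Those with CAAAGTCCA follow, ordered by the size of the difference.
CIDEB, chr14:24308004-24308052, minus strand: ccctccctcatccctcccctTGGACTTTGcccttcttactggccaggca
APOBEC1, chr12:7665908-7665956, minus strand: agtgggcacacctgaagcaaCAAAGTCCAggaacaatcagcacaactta
SDCBP2, chr20:1313666-1313714, minus strand: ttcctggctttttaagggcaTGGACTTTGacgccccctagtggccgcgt
GPR35, chr2:240605375-240605423, plus strand: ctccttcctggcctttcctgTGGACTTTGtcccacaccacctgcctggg
MISP, chr19:750980-751028, plus strand: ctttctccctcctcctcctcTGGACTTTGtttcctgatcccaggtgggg
F10, chr13:113122777-113122825, plus strand: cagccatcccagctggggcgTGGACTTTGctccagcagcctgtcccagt
PIPOX, chr17:29043113-29043161, plus strand: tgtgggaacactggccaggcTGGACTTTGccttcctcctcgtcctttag
RAB17, chr2:237590714-237590762, minus strand: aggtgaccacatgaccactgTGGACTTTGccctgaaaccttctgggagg
The matches began 2 to 112 bases before the start. Both genes that only the wider form adds, CLRN3 and SELENOP, were among the 15 largest differences.
CLRN3, chr10:127892962-127893010, minus strand: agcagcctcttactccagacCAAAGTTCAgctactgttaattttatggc
SELENOP, chr5:42811938-42811986, minus strand: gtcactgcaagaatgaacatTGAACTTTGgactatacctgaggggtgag
The genes behind these sequences differed by -3.28 (CLRN3) to -1.05 (RAB17) on the log2(TPM + 1) scale. A match describes these letters only, and binding was not measured.

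Of these genes, APOBEC1, the intestinal enzyme that edits apolipoprotein B mRNA, was at 3.52, 8.44 and 9.05 TPM in isoform 3 and was listed at 0 in 2 of 3 isoform 6 libraries, with 0.061 TPM in the other. CLRN3, a tetraspan membrane protein of epithelia, was at 6.06, 15.3 and 15.1 TPM in isoform 3 and between 0.223 and 0.343 TPM in isoform 6. SELENOP, the secreted selenium carrier, was at 33.3, 76.9 and 83.3 TPM in isoform 3 and at 7.23 to 7.73 TPM in isoform 6, slightly above the parental 5.29 to 6.17 TPM. The 3 genes share a layout in which isoform 3 replicate 1 lay between the other isoform 3 libraries and isoform 6. The differences were -2.89 ± 0.19, -3.28 ± 0.19 and -2.83 ± 0.20, and -3.26, -3.68 and -3.25 without that library.

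VIL1 and COBL were the 2 brush border genes called of 17 tested, and both were lower in isoform 6, as were 0.613% of all genes. Without isoform 3 replicate 1, 3 were called lower, SLC9A3R1 (-1.05) being added, against 0.807% of all genes. VIL1 passed the filter on mean TPM through the lines where it was high, and list members low in most lines were not tested. VIL1, the actin-bundling protein of microvilli (chromosome 2, 218419092 to 218453295), was at 9.91, 20.7 and 23.4 TPM in isoform 3 and at 0.821, 0.915 and 1.11 TPM in isoform 6, with 0.482 to 0.683 TPM in the parental cells. The difference was -3.20 ± 0.17 (adjusted p = 3.6e-15), and -3.56 without replicate 1. COBL, an actin nucleator, was at 21.0, 33.8 and 33.9 TPM in isoform 3 and 12.8 to 13.9 TPM in isoform 6, a difference of -1.07 ± 0.11. Without isoform 3 replicate 2 or 3 it was -0.96, which ends its call. With no minimum, 10 of the 17 passed lower and 2 higher, against 9% and 12.6% of all genes, both with and without replicate 1 (9.61% and 13.4% of all genes without it). The members that passed lower included SLC9A3R1 (-0.87), EPS8L2 (-0.74), USH1C (-0.66), ESPN (-0.56) and EZR (-0.28), which scaffold or bundle microvillar actin. The higher ones were FSCN1 (0.22) and DPP4 (0.33). The list's median was -0.31, and -0.37 without replicate 1. MYO15B, an unconventional myosin gene outside the list, was at 22.8, 50.8 and 49.99 TPM in isoform 3 and at 1.75 to 2.23 TPM in isoform 6, close to the parental 1.59 to 1.78 TPM.

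The list of textbook HNF4A targets of liver and gut held 21 genes, of which only 5 passed the filter on low values and 3 were called. These were VIL1, LGALS4 and F10, all lower, as were 0.613% of all genes. LGALS4, an intestinal galectin, was at 1.27, 3.58 and 3.51 TPM in isoform 3 and at 0.0725 to 0.162 TPM in isoform 6. F10, coagulation factor X, was at 15.2, 28.4 and 26.5 TPM in isoform 3 and at 8.65 to 9.32 TPM in isoform 6, within the parental range of 8.60 to 9.59 TPM. The other tested members, APOA1 and MTTP, differed by 0.07 and 0.15 and did not pass. The filter is a mean over all 39 libraries. Members low in most lines pass it only through the lines where they are high. The share called thus says nothing of the list as a whole, as in the other lists whose low members were not tested.

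In the list of gut and liver transcription factors, 2 of 19 tested members were called, both lower, against 0.613% of all genes. CREB3L3, a membrane-bound factor of hepatic and intestinal lipid metabolism, was at 2.43, 6.36 and 4.78 TPM in isoform 3 and at 0.161 to 0.327 TPM in isoform 6, the latter overlapping the parental 0.182 to 0.251 TPM. NR1I3, the xenobiotic receptor CAR, was at 2.91, 6.33 and 6.65 TPM in isoform 3 and at 0.874 to 1.14 TPM in isoform 6. The differences were -2.09 ± 0.16 and -1.58 ± 0.16, and -2.39 and -1.89 without replicate 1. With no minimum, 6 of the 19 passed lower, CREB3L3 and NR1I3 among them, and 5 higher, against 9% and 12.6% of all genes. NR5A2 (0.40), GATA6 (0.38), FOXA3 (0.32) and HNF4G (0.27) were among the higher ones.

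Other genes with large differences did not belong to one list. IL32, a cytokine gene (chromosome 16, 3065297 to 3082192), was at 14.5, 28.6 and 22.5 TPM in isoform 3 and at 0.437, 0.784 and 0.783 TPM in isoform 6, a difference of -3.74 ± 0.15. It was the 1 member called of 12 tested in a list of NF-kB response genes and chemokines. That list's median was 0.08, and 0.613% of all genes were called lower. C11orf86, an uncharacterised gene, was at 13.8, 25.9 and 21.0 TPM in isoform 3 and at 0.547 to 0.940 TPM in isoform 6, with a difference of -3.57 ± 0.14. HKDC1, a hexokinase, was at 4.604, 6.78 and 6.24 TPM in isoform 3 and at 0.0394 to 0.136 TPM in isoform 6. PRAP1, a secreted protein of the gut, was at 7.86, 15.3 and 14.2 TPM in isoform 3 and at 0.972 to 1.15 TPM in isoform 6. SULT2B1, which sulfates cholesterol, was at 23.1, 48.9 and 48.1 TPM in isoform 3 and at 10.2 to 10.4 TPM in isoform 6. In isoform 6 SULT2B1 lay above the parental 5.00 to 6.22 TPM, by 0.80 (log2, adjusted p = 0.00061), less than the minimum for a call. The pseudogene AQP7P3 was between 8.01 and 15.2 TPM in isoform 3 and at most 0.787 TPM in isoform 6, which is uncertain where reads of its AQP7 relatives could be shared. The non-coding LINC02313 was at 4.13 to 7.08 TPM in isoform 3 and listed at 0 in 2 of 3 isoform 6 libraries. LOC105379273 was at 3.14, 13.7 and 2.99 TPM in isoform 3 and listed at 0 in all 3 isoform 6 libraries, and its adjusted p was 0.012, or 0.105 without isoform 3 replicate 2.

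**Figure D2:**
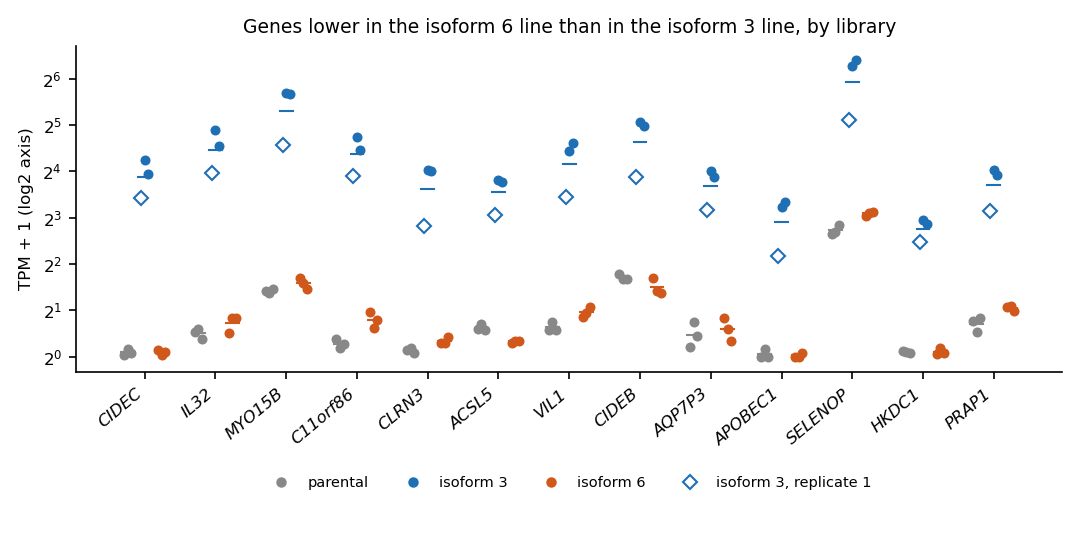
TPM + 1 (log2 axis) of 13 of the genes with the largest differences in the parental (grey), isoform 3 (blue) and isoform 6 (orange) libraries; each point is a library, short lines are means on the log2 scale, and the open diamond is isoform 3 replicate 1. In each gene the isoform 6 libraries sit near the parental ones, and the diamond is the lowest isoform 3 value.

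Further genes called lower, chosen for description after their values were seen, include abundant ones. AKAP12, a kinase scaffold, was at 358, 533 and 496 TPM in isoform 3 and at 193 to 217 TPM in isoform 6, below the parental 234 to 261 TPM. DHRS3, a retinal reductase, was at 45.3, 92.8 and 82.3 TPM against 12.7 to 15.6 TPM. HMOX1 and SRXN1, antioxidant enzymes, differed by -1.12 and -1.27, and the immediate early genes JUN, ZFP36 and KLF6 by -1.34, -1.48 and -1.10. For all 5 the isoform 6 values did not overlap those of isoform 3. The same held for 90 of the 92 genes called lower, from which they were picked, and for 12.8% of all genes tested with isoform 6 lower.

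For most genes called lower, isoform 6 was the line near the parental level. The parental mean was nearer to isoform 6 than to isoform 3 in 79 of the 92 genes, against 60.3% of all genes tested. Isoform 3 was called higher than the parental cells in 68 of the 92 (97 of all genes, 0.647%). The same isoform 3 libraries enter that comparison, so this count is a description. Isoform 3 replicate 1 was the isoform 3 library nearest to isoform 6 in 82 of the 92, against 42.3% of all genes. On a scale where isoform 6 is 0 and the mean of isoform 3 replicates 2 and 3 is 1, replicate 1 had a median position of 0.664 over the 92 genes (quartiles 0.561 and 0.749). The difference was larger without it in 85 of the 92, with a median of -1.57 instead of -1.41.

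In 8 of the 92 genes it was isoform 6 that was called lower than the parental cells, where 0.153% of all genes were, while isoform 3 was not called against them. The same isoform 6 libraries enter both comparisons, so this count is a description too. AREG and EREG, ligands of the EGF receptor that lie near each other on chromosome 4, were among these 8 genes. AREG was at 34.3, 42.7 and 41.7 TPM in isoform 3, at 9.47, 10.1 and 9.64 TPM in isoform 6 and at 26.1, 26.04 and 22.6 TPM in the parental cells. EREG was at 6.76, 9.31 and 9.34 TPM in isoform 3, at 2.50, 2.35 and 2.04 TPM in isoform 6 and at 6.76, 7.08 and 6.51 TPM in the parental cells. Against the parental cells, the isoform 6 differences were -1.27 and -1.24, and those of isoform 3 were 0.64 and 0.27. Against isoform 3, AREG differed by -1.91 ± 0.10 and EREG by -1.51 ± 0.10, and by -2.01 and -1.65 without replicate 1. In the list of EGF ligands and ERBB receptors, 2 of 11 tested members were called, both lower, against 0.613% of all genes. With no minimum 6 passed lower, against 9% of all genes. Among them were the receptor ERBB3 (-0.73) and the ligands BTC (-0.33), TGFA (-0.27) and HBEGF (-0.25). EGFR (-0.03) and ERBB2 (-0.07) did not pass.

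OAS1, an interferon-induced sensor of double-stranded RNA, was at 4.16, 6.19 and 4.95 TPM in isoform 3, at 1.14, 1.39 and 1.43 TPM in isoform 6 and at 3.65 to 4.24 TPM in the parental cells. It was the 1 member called of 26 tested interferon-stimulated genes (0.613% of all genes were called lower), whose median was 0.03. With no minimum, 6 of that list passed higher, led by IFI6 (0.77), and 2 lower, OAS1 and ISG15 (-0.59), against 12.6% and 9% of all genes. The remaining genes of the 8 were PLAU, the urokinase plasminogen activator, NRP1, a co-receptor of semaphorins and VEGF, the TNF family ligand TNFSF18, SNORA119 and LOC107986229. PLAU was at 80.6, 73.2 and 62.0 TPM in isoform 3, at 29.9, 36.6 and 34.8 TPM in isoform 6 and at 77.5 to 93.9 TPM in the parental cells. Its difference was -1.07, and -0.98 without replicate 1, which ends its call, as for NRP1 (-1.01 and -0.94).

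Far fewer genes were higher in isoform 6, and the 3 with the largest differences were higher than in the parental cells as well as than in isoform 3. RPGRIP1, a scaffold of the photoreceptor cilium (chromosome 14, 21287939 to 21351301), was at 13.1, 13.8 and 13.02 TPM in isoform 6, at 1.44, 0.535 and 0.298 TPM in isoform 3 and at 3.44, 3.59 and 3.09 TPM in the parental cells. VIM, the intermediate filament of mesenchymal cells (chromosome 10, 17228259 to 17237593), was at 27.7, 32.6 and 31.5 TPM in isoform 6, at 8.56, 2.56 and 2.13 TPM in isoform 3 and at 13.8, 14.6 and 13.9 TPM in the parental cells. FGF13, an intracellular member of the FGF family (chromosome X, 138614731 to 139222777), was at 8.17, 8.67 and 8.19 TPM in isoform 6, at 1.29, 0.324 and 0.409 TPM in isoform 3 and at 2.30 to 2.38 TPM in the parental cells. In each of the 3 genes the groups did not overlap, and the parental cells lay between isoform 3 and isoform 6. The differences between isoforms were 3.08 ± 0.13, 2.73 ± 0.22 and 2.53 ± 0.13, and 3.34, 3.24 and 2.77 without isoform 3 replicate 1. Against the parental cells, isoform 6 differed by 1.71, 1.06 and 1.48 and isoform 3 by -1.37, -1.67 and -1.04, all 6 called. In bulk samples a smaller share of cells with a transcript and less of it per cell cannot be told apart.

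SUCNR1, the receptor for succinate, was at 14.5, 15.9 and 17.0 TPM in isoform 6, at 3.19, 1.98 and 3.22 TPM in isoform 3 and at 6.01 to 6.44 TPM in the parental cells. Its difference was 2.16 ± 0.15, and it was called higher than the parental cells, while isoform 3 was not called against them. The neuronal microtubule protein MAP2 and the imprinted non-coding RNA H19 differed by 1.25 ± 0.12 and 1.24 ± 0.15. Mean MAP2 was 9.54 TPM in isoform 6, 3.48 TPM in isoform 3 and 7.71 TPM in the parental cells. Mean H19 was 18.4, 7.38 and 11.1 TPM in the same order. The pseudogene AADACP1 (1.10), the phosphatase inhibitor PPP1R1B (1.04) and TRIML2 (1.02) were close to the minimum. Isoform 6 was not called against the parental cells for MAP2, H19, AADACP1, PPP1R1B or TRIML2. Its mean PPP1R1B of 3.87 TPM lay below the parental mean of 6.63 TPM. AADACP1 was at 0.95 without isoform 3 replicate 3, TRIML2 at 0.96 without it, and PPP1R1B at 0.87 and 0.75 without isoform 3 replicate 2 or 3, each of which ends the call. Of the 13 genes called higher, the parental mean was nearer to isoform 6 in 8, against 60.3% of all genes tested. Isoform 3 was called lower than the parental cells in 7 of the 13 (0.153% of all genes). Isoform 6 was called higher than them in 4 (0.0867% of all genes). The same libraries enter these comparisons, so the counts are a description.

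SPARC, a secreted collagen-binding protein, showed how far isoform 3 replicate 1 departed. It was at 7.27, 0.326 and 0.426 TPM in isoform 3 and at 5.28, 4.63 and 5.52 TPM in isoform 6, beside 14.97 to 20.4 TPM in the parental cells. The groups overlapped through replicate 1, the highest of all 6 values, and both lines were called lower than the parental cells. The difference was 1.29 ± 0.34 (adjusted p = 0.0053) and 2.16 without replicate 1. Without replicate 2 or 3 instead, the adjusted p was 0.092 and 0.0755. For TMEM132D-AS1 the groups also overlapped through replicate 1, with 2.69, 0.0983 and 0 TPM in isoform 3 and 2.34 to 4.24 TPM in isoform 6. In the list of matricellular, caveolar and mesenchymal genes, VIM and SPARC were the members called of 17 tested, and 4 were called without replicate 1. Of all genes, 0.0867% were called higher, and 0.173% without replicate 1. With no minimum, 7 passed higher, including THBS1 (0.99), CYR61 (0.87) and FN1 (0.33), and 2 lower, the caveolins CAV1 (-0.74) and CAV2 (-0.73). Over all genes, 12.6% passed higher and 9% lower. SNAI1 and SNAI2 (both -0.12) did not pass.

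**Figure D3:**
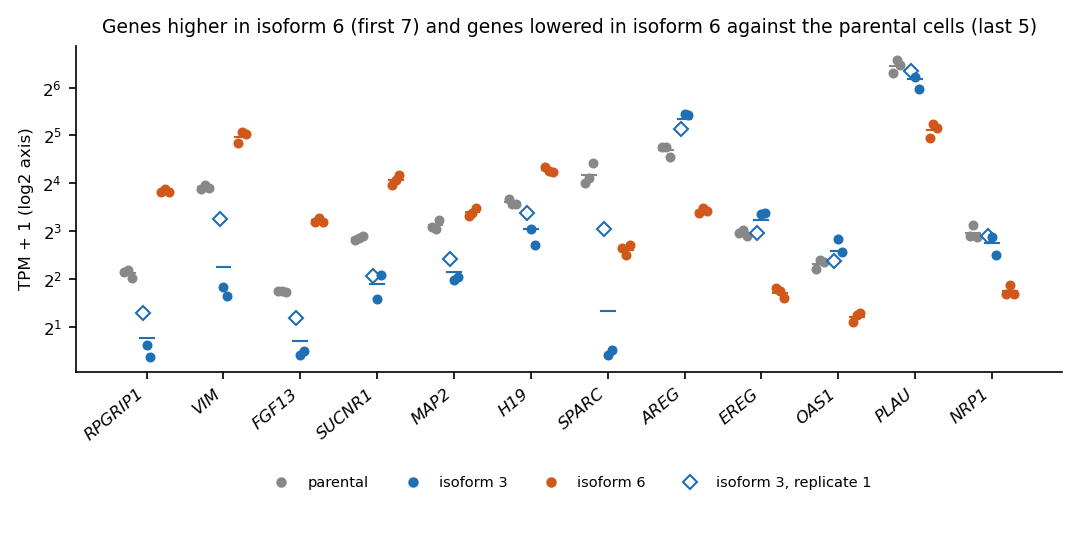
TPM + 1 (log2 axis) of 7 genes called higher in isoform 6 (RPGRIP1 to SPARC) and 5 genes in which isoform 6 was called lower than the parental cells (AREG to NRP1), by library; points, lines and the open diamond are as in the plot of the lower genes. For RPGRIP1, VIM and FGF13 the parental libraries lie between the lines, and for AREG to NRP1 the isoform 6 libraries lie below all others.

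Some calls turned on isoform 3 replicate 1. Called only with it were the non-coding OCIAD1-AS1 (-1.22, adjusted p = 0.029, and -0.80 without it) and the small nuclear RNA pseudogene RNU6-431P (1.99, and 1.46 with adjusted p = 0.131 without it), as well as PLAU, NRP1 and S100A10 (-0.94 without it). Called only without it were 33 genes lower and 14 higher. Of the lower ones, the short RNA pseudogenes RNA5SP298 (-2.05 without it) and RN7SL127P (-1.19) had the largest differences, followed by the membrane ferroxidase HEPH (-0.97 with replicate 1 and -1.17 without it). Of the higher ones these were the non-coding LOC101928391 (1.23 without it) and the ribosomal protein pseudogene RPLP1P7 (1.17). VEGFA was at -0.99 with replicate 1 and -1.14 without it, and CD68 at -0.92 and -1.07. HEPH, VEGFA and CD68 were chosen after their values were seen.

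Several gene lists differed by small amounts in one direction. All 37 DNA replication and S phase genes were above 0, with a median of 0.24, and 24 of the 37 passed the adjusted p with no minimum (12.6% of all genes did so in that direction). With replicate 1 left out, 30 passed, and the median was 0.30. CCNE2 (0.44) and E2F1 (0.34), which drive entry into S phase, were the largest, and none was called. Mitosis and G2/M genes were above 0 in 34 of 36, with a median of 0.17 and 12 passing, 16 without replicate 1. Cholesterol synthesis genes were below 0 in 23 of 26, with a median of -0.25, and 15 passed lower, 17 without replicate 1. Of all genes, 9% passed lower, and 9.61% without replicate 1. DHCR7 (-0.58), MVD (-0.49) and HMGCS1 (-0.42), enzymes of the pathway, were among the 15, while SREBF2 (-0.01), which activates it, did not pass. Of 25 tested junction genes, 10 passed lower, including CDH1 (-0.51) and CLDN7 (-0.47), and 3 higher, against 9% and 12.6% of all genes. CDH1 and CLDN7 are also among the epithelial markers whose sum differed between the lines. Wnt target genes passed higher in 7 of 18, led by ZNF703 (0.78) and NOTUM (0.71), and lower in 1, TCF7 (-0.14), beside the same shares. Lists of ATF4 targets, p53 targets and conjugation enzymes had medians of 0.04, 0.07 and -0.08. SULT2B1 was the only call in these 3 lists. Scaling by size factors moved the median of all genes from 0.03 to -0.003.

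**Figure D4:**
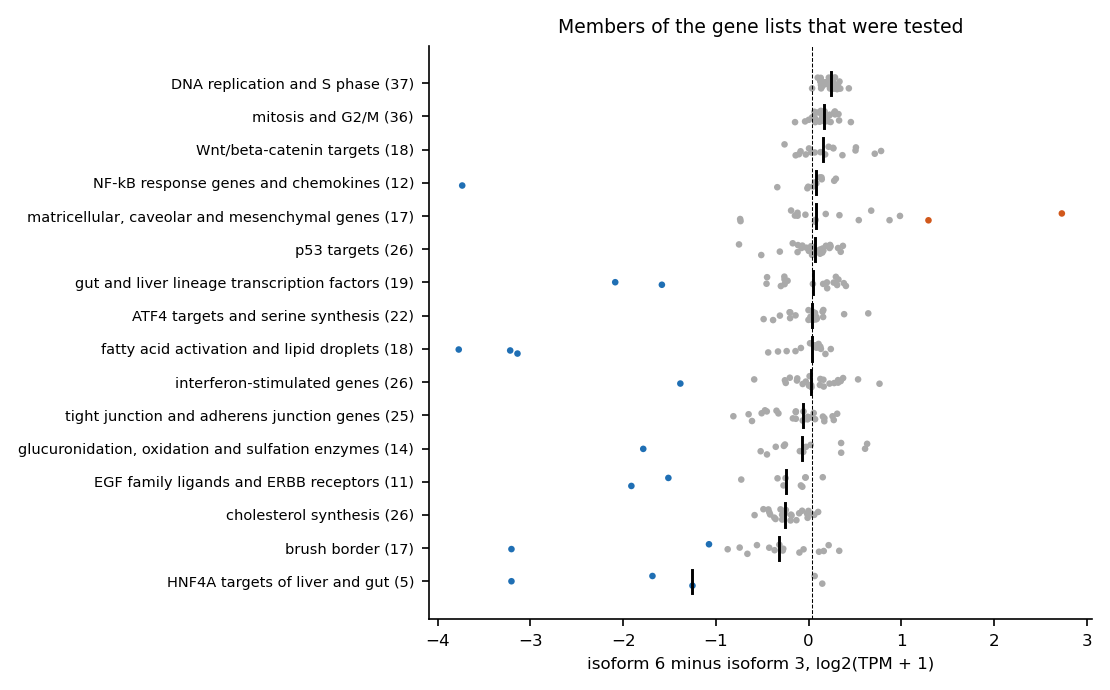
Differences between isoform 6 and isoform 3 (log2(TPM + 1)) of the tested members of each list, with the number tested in parentheses; each point is a gene, blue or orange where called lower or higher, the black bar is the list's median and the dashed line the median of all genes tested. S phase genes cluster narrowly above 0, and the lipid droplet list has 3 far members and a median near 0.

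The pairs with the other C-terminal forms gave the same comparison, exon 1B against none, in libraries that do not enter isoform 6 against isoform 3. Isoform 4 against isoform 1 called 674 genes (4.49%), 414 lower (2.76%) and 260 higher (1.73%) in isoform 4. Isoform 5 against isoform 2 called 604 genes (4.03%), 303 lower (2.02%) and 301 higher (2.01%) in isoform 5. Of the 92 genes lower in isoform 6, 84 (91.3%) were also called lower in isoform 4, which is 20.3% of that list, and 82 (89.1%) in isoform 5, which is 27.1% of that list. In total 81 were lower in all 3 pairs, and none was called in the other direction. The median difference of the 92 was -2.30 in isoform 4 against 1 and -2.18 in isoform 5 against 2, beside -1.41 in isoform 6 against 3. ACSL5 was at 105 TPM ± 9.5 (SD, n = 3) in isoform 1 and 0.603 TPM ± 0.0347 in isoform 4, and at 81.2 TPM ± 0.288 in isoform 2 and 0.524 TPM ± 0.14 in isoform 5. The low end was thus near that of isoform 6, and the high end above the 7.37 to 12.998 TPM of isoform 3. CREB3L3 had the same layout, with 37.9 TPM ± 4.87 in isoform 1, 36.8 TPM ± 4.84 in isoform 2 and 2.43 to 6.36 TPM in isoform 3. SELENOP did not, with 73.8 TPM ± 3.03 in isoform 1 and 60.0 TPM ± 4.23 in isoform 2, inside or near the range of isoform 3. The 7 genes called lower in no other pair were COBL (-0.87 and -0.89 in the other pairs), TNFSF18, SNORA119, MIR1469, OCIAD1-AS1, TRT-CGT4-1 and LOC105379273. Of these 7, 5 are non-coding or unnamed loci.

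The genes higher in isoform 6 were set beside the same pairs. Of 13, 5 (38.5%) were also called higher in isoform 4 and 9 (69.2%) in isoform 5, being 1.92% and 2.99% of those lists. Among those called higher in all 3 pairs were SUCNR1, MAP2, H19 and PPP1R1B. RPGRIP1, VIM, FGF13 and TRIML2 were called higher in neither other pair. In isoform 5 against 2, TRIML2 rose by 0.60 and FGF13 by 0.58 (adjusted p = 3.7e-05 and 0.00033 by limma), less than the minimum. For TRIML2 the difference from that pair, 0.43, was not called. RPGRIP1 was at 0.403 TPM ± 0.111 (SD, n = 3) in isoform 1, 0.646 TPM ± 0.123 in isoform 4, 0.374 TPM ± 0.0831 in isoform 2 and 0.437 TPM ± 0.0968 in isoform 5. VIM was at 3.69 TPM ± 0.42, 2.46 TPM ± 0.124, 6.11 TPM ± 1.31 and 8.15 TPM ± 1.88 in isoforms 1, 4, 2 and 5, all below the parental 13.8 to 14.6 TPM. The isoform 6 line was thus the one of these 6 lines with more VIM than the parental cells.

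The difference between the pairs was tested directly. It was called in 275 genes (1.83%) for (6 minus 3) minus (4 minus 1), 84 of them negative (0.56%) and 191 positive (1.27%). For (6 minus 3) minus (5 minus 2) it was called in 223 genes (1.49%), 108 negative (0.72%) and 115 positive (0.767%). The counts without isoform 3 replicate 1 were 219 and 193. Among the 92 genes lower in isoform 6, 40 differed from isoform 4 against 1 and 34 from isoform 5 against 2. ACSL5 fell less in isoform 6 by 2.82 ± 0.16 (log2, SE, adjusted p = 5.7e-14) and by 2.54, and CREB3L3 by 2.34 and 2.65. IL32 did so by 1.99 and 1.72. These smaller falls began from lower levels. Mean ACSL5, CREB3L3 and IL32 were at 11.0, 4.53 and 21.9 TPM in isoform 3 and at 105, 37.9 and 139 TPM in isoform 1. They ended at 0.257, 0.243 and 0.668 TPM in isoform 6, below the 0.603, 0.817 and 1.70 TPM of isoform 4. The log2(TPM + 1) scale understates falls to such levels, and its part in these values was not tested. For CLRN3 and SELENOP neither test was called, with differences of 0.57 and -0.22 and of -0.20 and -0.17. For the genes higher in isoform 6, the difference from the other pairs was 2.85 and 3.01 for RPGRIP1, 3.17 and 2.37 for VIM and 2.88 and 1.94 for FGF13. In the plot of the contrasts, most blue points lie below the diagonal, and RPGRIP1, VIM and FGF13 lie near 0 in both other pairs.

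**Figure D5:**
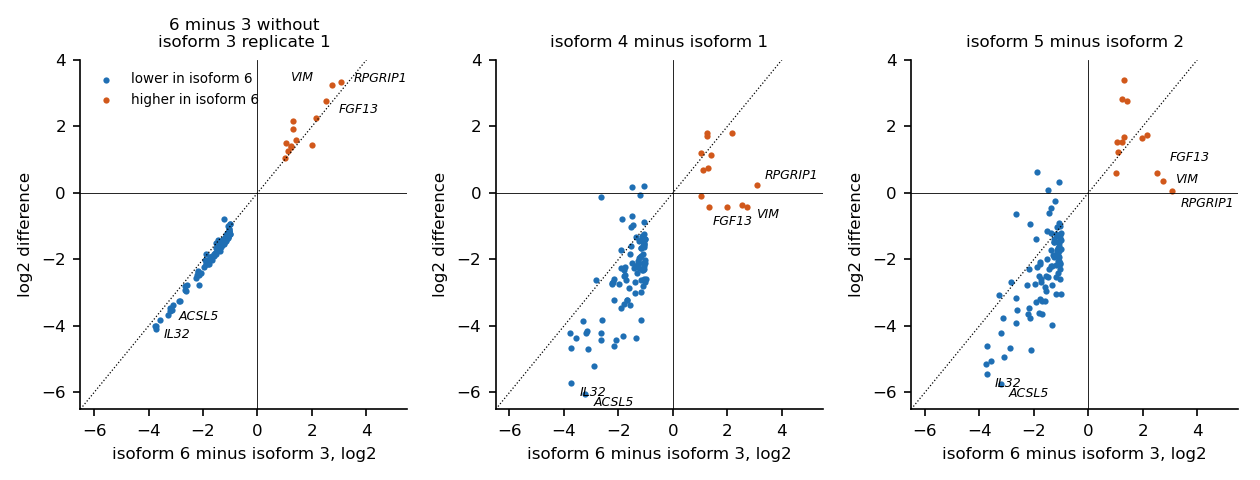
Log2 differences of the 105 genes called in isoform 6 against isoform 3 (horizontal axis) beside those without isoform 3 replicate 1 (left), in isoform 4 against 1 (middle) and in isoform 5 against 2 (right, vertical axes); the dotted line is equality. Blue genes are lower and orange genes higher in isoform 6, and without replicate 1 the points keep close to the line.

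The genes with the largest differences between pairs were mostly genes that isoform 6 did not change from isoform 3 by the minimum. HBE1, embryonic beta-type globin, was at 6.75, 5.07 and 3.55 TPM in isoform 3 and at 2.46, 1.99 and 1.96 TPM in isoform 6, while it rose from 2.12 TPM ± 0.693 (SD, n = 3) in isoform 1 to 43.8 TPM ± 1.24 in isoform 4 and from 1.20 TPM ± 0.398 in isoform 2 to 26.7 TPM ± 0.535 in isoform 5. The odorant receptor gene OR51B5, whose annotated span overlaps that of HBE1 on chromosome 11, moved alongside, at 2.08 to 2.73 TPM in isoform 3, 0.818 to 1.64 TPM in isoform 6, 31.3 TPM ± 3.08 in isoform 4 and 19.3 TPM ± 1.82 in isoform 5. Reads of overlapping genes can be shared between them. DHRS2, a short-chain dehydrogenase, was at 55.4, 5.42 and 5.21 TPM in isoform 3 and at 9.66, 10.2 and 10.1 TPM in isoform 6. Its difference was -0.25 (adjusted p = 0.73) with isoform 3 replicate 1 and 0.80 (adjusted p = 5.1e-05) without it, so 1 library set the sign, beside 3.10 and 5.40 in the other pairs. FCGRT, the neonatal Fc receptor, differed by 0.48 in isoform 6 and by -2.74 and -1.17 in isoforms 4 and 5. ARL14EPL differed by 0.18, -1.53 and -3.33 in the 3 pairs. SULT1A3, at 31.8 TPM ± 35.8 in isoform 1, is a near-identical copy of another gene and is uncertain, and RN7SL2, a short RNA gene, ranged from 81.0 to 377 TPM among the isoform 3 libraries alone.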

How the data were processed

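The authors deposited 1 table per group with 45446 rows and the level of each gene per library in TPM. The submitters' processing notes name FastQC 0.11.5, Trimmomatic 0.36, kallisto 0.44.0, DESeq2 1.22.2 and the build GRCh38.p12, without saying which step made which column. Each line's table also carries fold changes against the parental group, per the file headers, which were not used here. Its mean of normalised counts, deposited by the authors, summed to 54770651 for isoform 3 and 50609338 for isoform 6, and the files give no other sign of depth. Columns were assigned by the names that the labels repeat, and no column of values was left unassigned. For isoforms 4 and 5 these names give the group but no replicate number. In the tables of isoforms 4 and 5, 29 names were altered and were replaced by those of the parental table. Besides names turned into dates, the names HNF4A4 and HNF4A5 were exchanged there relative to the parental table. By the names in their own tables, the highest HNF4A row was HNF4A4 in the isoform 4 libraries and HNF4A5 in the isoform 5 libraries. By the parental names it would be the other way round, so the identity of these lines rests on the labels.

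The 12 rows named HNF4A1 to HNF4A12 were left out of the tests. R 4.3.3 and limma 3.58.1 were used to fit log2(TPM + 1) by a linear model with moderated variances and a trend (lmFit, eBayes). All 39 libraries entered, as 13 groups, which leaves 26 residual degrees of freedom. Genes under a mean of 1 TPM were not tested. Of 15002 rows tested, 122 repeat the values of another row. P-values were adjusted over all genes tested. The script was tested on simulated data. The same fit gave isoform 4 against 1, isoform 5 against 2, the differences between these contrasts, and isoforms 3 and 6 against the parental cells, which share libraries with isoform 6 against 3.

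Genes were named by a rule: the 15 largest rises and falls among genes called with and without isoform 3 replicate 1 and with no overlap, called list members, the 3 largest each way that are called only with or without that replicate, the 5 largest each way called in 3 pairs, and the 5 largest differences between pairs. Genes named otherwise are examples from the lists or are said to be chosen after seeing their values. The members and lists were chosen with earlier results of these data known. Coordinates are from GENCODE (GRCh38) and promoters from RefSeq (GRCh38.p14), matched by symbol. Replicate numbers did not pair the libraries. Alternatives covered the pseudocount, the filter, scaling, the libraries in the fit, array weights, the replicate block and each library left out. Some genes that the naming rule or the lists select are not reported here.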

Additional observations from a re-analysis of the deposited data

Results flagged for a closer look

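The difference between exon 1B pairs was itself tested, and the results below are among those in which it was called. The count was 275 genes for (6 minus 3) minus (4 minus 1) and 223 genes for (6 minus 3) minus (5 minus 2). All values are differences of log2 differences, where a positive value means that isoform 6 stood higher relative to isoform 3 than the other isoform with exon 1B did relative to its partner.

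The named genes lower in isoform 6 gave positive values where the difference was called with all libraries. A positive value does not by itself mean a higher level in isoform 6 than in isoform 4 or 5. Mean HKDC1 was at 0.0804 TPM in isoform 6 and at 0.206 TPM in isoform 4, from 5.88 TPM in isoform 3 and 21.3 TPM in isoform 1. PRAP1 and OAS1 were higher in isoform 6 (1.07 and 1.32 TPM) than in isoform 4 (0.762 and 0.527 TPM). Against isoforms 4 and 1 alone these were CIDEB 1.01, PRAP1 1.78, LINC02313 1.21 and OAS1 1.63, and against isoforms 5 and 2 alone CIDEC 1.38 and C11orf86 1.48. Against both pairs in that order they were IL32 1.99 and 1.72, ACSL5 2.82 and 2.54, VIL1 1.00 and 1.02, and AQP7P3 1.60 and 1.83. They were APOBEC1 2.33 and 1.77, HKDC1 1.54 and 1.24, CREB3L3 2.34 and 2.65, LGALS4 1.55 and 1.57, and NR1I3 1.79 and 1.25. Without isoform 3 replicate 1 the VIL1 values were 0.64 and 0.66 and the CIDEB value 0.63, below the minimum of 1, as was the NR1I3 value of 0.94 against isoforms 5 and 2. OAS1 had the opposite sign against isoforms 5 and 2, at -0.93, which was not called. Without that replicate it was -1.04 (adjusted p = 8.3e-06 by limma), which meets the rule for a call.

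Of the genes higher in isoform 6, FGF13 differed by 2.88 and 1.94, VIM by 3.17 and 2.37 and RPGRIP1 by 2.85 and 3.01 from both pairs. TRIML2 differed by 1.11 from isoforms 4 and 1, and H19 by -1.58 from isoforms 5 and 2.

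Among genes not called between isoforms 6 and 3, HBE1 differed by -4.80 and -4.60, OR51B5 by -4.13 and -3.76, DHRS2 by -3.36 and -5.65, FCGRT by 3.22 and 1.66 and ARL14EPL by 1.71 and 3.51. Low or short loci were SULT1A3 (4.48) and RN7SL127P (-1.58) against isoforms 4 and 1, RN7SL2 (-3.51) against isoforms 5 and 2, and RNU6-431P (2.42, called in isoform 6 against 3) against isoforms 4 and 1. Without isoform 3 replicate 1, DHRS2 differed by -2.31 and -4.60. The calls of RNU6-431P (1.89, adjusted p = 0.148 by limma) and RN7SL2 (-3.26, adjusted p = 0.0854 by limma) ended without it.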

How the results depend on the processing

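Isoform 6 against isoform 3 called 105 genes. The count was 179 (47 higher, 132 lower) with a pseudocount of 0.1, 209 (67 higher, 142 lower) with array weights, whose fit did not converge fully, and 3237 with no minimum difference. Leaving out 1 library at a time gave 91 to 147 genes. The libraries share only a number, with correlations of deviations of -0.0655, 0.0376 and 0.0306 for numbers 1, 2 and 3, and a replicate block over the 6 libraries alone called 104 genes (15 higher, 89 lower), 93 of them shared, against 106 without the block.

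For isoform 4 against 1 the count was 8272 with no minimum, and 657 to 708 leaving out 1 library. For isoform 5 against 2 it was 365 at a mean of at least 5 TPM, 8086 with no minimum, and 597 to 613 leaving out 1 library; size factors moved the higher and lower counts from 301 and 303 to 229 and 378. The first difference between pairs gave 138 genes at 5 TPM, 3908 with no minimum, and 219 to 290 leaving out 1 library. The second gave 361 with a pseudocount of 0.1 (142 higher, 219 lower), 117 at 5 TPM, 3476 with no minimum, and 193 to 250 leaving out 1 library, with 144 higher and 82 lower under size factors.

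Of 37 named genes that were called, 29 stayed called under each of the alternatives that tested them, and no sign was opposite among the 542 values of these 37 genes. Of the named genes that were not called, DHRS2 ran from -0.79 to 0.80, and SULT1A3 was at 0.63, and at -0.03 with array weights. In the fit of the 6 libraries alone SPARC (adjusted p = 0.245), PPP1R1B (0.105), OCIAD1-AS1 (0.105) and RNU6-431P (0.0698) were not called. TRIML2 was at 0.99 with size factors. The cause of these changes was not tested. TPM carries no counting error, so the precision at low levels is not known.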

Other observations

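Some genes lower in isoform 6 fall outside the lists and were picked for description after their values were seen. BAAT, which joins bile acids to taurine or glycine, was at 1.91, 4.33 and 4.53 TPM in isoform 3 and at 0.247 to 0.258 TPM in isoform 6. CYP17A1, an enzyme of steroid synthesis, was at 0.851, 2.33 and 2.54 TPM and at 0.103 to 0.111 TPM. The efflux transporter ABCG2 was at 4.70, 6.74 and 7.77 TPM and at 1.73 to 2.50 TPM. TRIM15 and TRIM10, which neighbour each other in the MHC region, differed by -1.96 and -1.25, and the secreted semaphorins SEMA3B and SEMA3C by -1.80 and -1.24. In isoform 3 replicate 1 each of these 7 genes had the lowest of the isoform 3 values.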
